A study of Homo sapiens with 4 samples.

Results

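The replication-dependent histone genes and the linker histone genes H1-1 to H1-5 were described across RNA that was or was not purified together with a transfected microRNA. Members were the rows whose protein-coding symbol begins with H2AC, H2BC, H3C or H4C followed by digits, or is H1-1 to H1-5. There were 68 such genes among 60554 rows, namely 5 of H1, 17 of H2A, 18 of H2B, 13 of H3 and 15 of H4, and 49 of them passed the minimum mean normalised count of 50 that 12662 genes passed in all. The study asked which RNAs are bound to miR-491-5p in IGROV1-R10, an ovarian cancer cell line. All cells were transfected at 60 nM with INTERFERin. After cell debris and nuclei had been spun out, the lysate stood on streptavidin beads for 4 h and the beads were washed 5 times. The miR-491-5p pull-down was the RNA held with miR-491-5p carrying biotin. The control pull-down was the RNA held with a biotin-carrying control miRNA, a worm miRNA that the design text calls cel-miR-65. The miR-491-5p input and the control input were RNA from 10% of the lysate of each transfection, taken before the beads. Each group was 1 library, made from the pooled RNA of 3 experiments, so differences between the miRNAs have no replicate check and no p-value. Intervals given with ratios are 95% counting intervals, cover counting error only and leave out the spread between experiments.

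Replication-dependent histone genes supply the proteins around which DNA is wrapped while it is copied, and their RNA accumulates in S phase. Most lie in clusters, are short and without introns, and give messenger RNAs that end in a stem-loop bound by SLBP in place of a poly(A) tail. The families H2A, H2B, H3 and H4 form the core of the nucleosome, and H1 binds the linker DNA between nucleosomes. Many of the genes encode the same or nearly the same protein, and some are near-identical over their whole length, so that short reads cannot always be placed. The libraries were made with a total RNA kit, which does not select for poly(A) tails.

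The miRNA on the beads is shown with its seed, bases 2 to 8 from its 5′ end, in capitals, since the pull-down was meant to find RNAs bound to it. It is given 5′ to 3′ from RefSeq on GRCh38.p14, where it lies at chr9:20716120-20716141 on the plus strand.
hsa-miR-491-5p: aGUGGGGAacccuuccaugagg

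Stretches of 80 bases in front of the RefSeq start are shown for the members that stood apart in the pull-downs and for a pair of copies with almost no reads. The sequences run 5′ to 3′ on the strand of the gene, from RefSeq on GRCh38.p14, with TATAA and CCAAT in capitals. They are H4C11 (chr6:27824012-27824091, plus strand), H4C12 (chr6:27831561-27831640, minus strand), H4C14 (chr1:149832577-149832656, plus strand), H4C15 (chr1:149861160-149861239, minus strand), H2BC7 (chr6:26199436-26199515, plus strand), H4C16 (chr12:14771132-14771211, minus strand) and H2AC16 (chr6:27865237-27865316, plus strand).
H4C11: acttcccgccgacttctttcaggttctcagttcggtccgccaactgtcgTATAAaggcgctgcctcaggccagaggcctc
H4C12: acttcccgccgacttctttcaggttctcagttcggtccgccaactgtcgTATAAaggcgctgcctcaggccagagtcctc
H4C14: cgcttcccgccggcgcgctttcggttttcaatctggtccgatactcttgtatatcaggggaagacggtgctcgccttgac
H4C15: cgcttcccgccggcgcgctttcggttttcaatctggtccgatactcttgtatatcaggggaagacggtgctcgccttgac
H2BC7: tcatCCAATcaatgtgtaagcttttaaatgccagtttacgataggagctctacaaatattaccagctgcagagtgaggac
H4C16: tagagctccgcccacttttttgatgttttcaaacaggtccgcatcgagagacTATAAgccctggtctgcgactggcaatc
H2AC16: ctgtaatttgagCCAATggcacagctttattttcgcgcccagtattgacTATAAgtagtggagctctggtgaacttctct

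The stretches of H4C11 and H4C12 were identical at 79 of 80 bases, and those of H4C14 and H4C15 at 80 of 80. RefSeq promoters, 250 bases before and 50 after the start, were matched to 63 of the 68 members. The other members were H2AC12, H4C1, H4C3, H3C11 and H3C12. TATAA, on either strand of the 250 bases, was found in 58 of the 63, against 19.6% of 27305 RefSeq promoters. CCAAT was found in all 50 members of H1, H2A, H2B and H3 that had a promoter, in 3 of 13 of H4, and in 33.0% of all promoters. AAACACA was found in 5 of 5 H1 genes and in 0 of the other members, against 4.95% of all promoters. These are matches of letters, and the motifs searched do not overlap one another. The searched stretches do overlap in pairs of an H2A and an H2B gene that face away from each other. The starts of such pairs lie 194 to 248 bases apart, so a match can count for both genes. The same letters also count for both genes where promoters are identical, so the members are not all separate stretches. Over the whole window, allowing a shift of up to 20 bases, the median identity of 416 pairs within a family was 33.0%. The pairs H4C14 and H4C15, H3C14 and H3C15, and H2AC18 and H2AC19 had no differing base, H4C11 and H4C12 were identical at 98.3%, and the next pair, H2AC13 and H2AC14, at 84.0%.

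The libraries held 61705443 counts on the miR-491-5p beads, 62582646 on the control beads, 59588552 in the miR-491-5p input and 47679684 in the control input. Of these the 68 genes took 0.394%, 0.376%, 0.623% and 0.595% in the same order of libraries. Markers of ovarian carcinoma epithelium were present in all 4 libraries, with summed normalised counts of 86855, 96473, 120773 and 153239 in that order. The hepatocyte markers summed to 25.9, 18.6, 9.40 and 3577, so that nearly all of their counts were in the control input, and the 5 fibroblast markers to 37.2, 37.3, 288 and 744. All 10 hepatocyte markers were above 0 in the control input, while 5, 4 and 6 of them were at 0 in the other libraries in that order, and their part in the ratios to the control input was not tested. The 6 proliferation markers summed to 132598, 110972, 136766 and 111412. None of them passed 2-fold between the pull-downs, between the inputs, or between a pull-down and the input of the same transfection. In bulk RNA, fewer cells in S phase and less histone RNA per cell cannot be told apart.

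Of the 19 members below the minimum, none had more than 17 counts in any library. They were H2AC1, H2AC7, H2AC15, H2AC17, H2AC18 and H2AC19, H2BC1, H2BC9 and H2BC10, H3C3, H3C4, H3C7, H3C8, H3C14 and H3C15, and H4C6, H4C7, H4C14 and H4C15. H2AC15, H3C4, H4C6 and H4C7 had 0 counts in all libraries. For H4C6 and H4C7 this allows up to 3 counts in each, or 2.43 to 3.85 after normalisation. H2AC15 and H3C4 lie wholly in other rows, so their 0 sets no such limit. Reads that touch several rows were left out of the counting, and 4 of the 19 shared most of their exon bases with another row: H2AC15 and H3C4 100%, H2AC7 98.0% and H2AC17 88.0%. The 3 pairs with identical promoters were all among the 19. H4C14 had 8, 8, 14 and 8 counts in the miR-491-5p pull-down, control pull-down, miR-491-5p input and control input. H4C15 had 6, 4, 4 and 10 counts in the same libraries. Reads that fit several places were also left out, so a level of such a copy is a lower limit and cannot be told from silence. The gap around the minimum was wide: H2BC3, the lowest member past it, had a mean of 110.5 normalised counts and H3C3, the highest below it, had 11.5.

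Levels were compared between members in the inputs, as normalised counts per kilobase of exon. H4C4 was highest, with 48280 in the miR-491-5p input and 46594 in the control input. H1-2, a linker histone of the first chromosome 6 cluster, had 44292 and 40746, H3C2 43997 and 40854, and H2BC12 42624 and 41133. These 3 genes lay so close together that their order differed between the inputs. H4C3 followed with 39432 and 35723, and H2BC17 with 29672 and 27397. Among H2A genes the highest was H2AC21, with 9882 and 9880, below the leading row of every other family. Of the 17 H2A members, 13 share exon bases with an unnamed row of 137 to 142 bases on the opposite strand, and reads that touch both rows were left out of both. These short rows had at most 2 counts in any library, and how many reads the H2A genes lost this way was not tested. All 5 H1 genes ranked between H1-2 at 2 and H1-3 at 11 of the 49. The lowest past the minimum were H2AC25, with 322 and 340, and H2BC3, with 299 and 240. Rows with long annotated exons, such as H4C16 (2578 bases) and H3C6 (2679 bases), had low values on this scale, 643 and 654 in the miR-491-5p input.

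The inputs differed little between the transfections for the histone genes. The log2 ratio of the miR-491-5p input to the control input had a median of 0.09 over the 49 members and of -0.01 over all genes tested. It was above 0 for 41 of 49 members and for 49.0% of all genes. At 2-fold with an interval excluding 0, no member was higher, where 0.727% of all genes were, and none was lower, where 0.513% of all genes were. With the interval alone as the rule, 29 members were above 0 and 4 below, against 29.0% and 29.5% of all genes. The summed counts of each family had ratios from 0.07 (H2A, interval 0.05 to 0.09) to 0.11 (H1, 0.10 to 0.13). The largest single values were 0.32 for H2BC3 (-0.04 to 0.67), with 168 normalised counts in the miR-491-5p input and 135 in the control input, -0.29 for H2AC20 (-0.48 to -0.11), with 485 and 595, and -0.25 for H2AC16 (-0.40 to -0.11), with 810 and 965. H2BC3 had 76.0 normalised counts on the miR-491-5p beads and 63.1 on the control beads, and H2AC20 had 272 and 231.

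Relative to its input, histone RNA was lower than most RNA on both kinds of beads. Of the 49 members, 45 were below their input in both transfections, against 45.9% of all genes tested. The log2 ratio of pull-down to input had a median of -0.95 with miR-491-5p and of -1.36 with the control, where the medians of all genes were -0.15 and -0.15. On the miR-491-5p beads, 19 of 49 members were at least 2-fold lower than in the input, where 4.96% of all genes were, and 0 were 2-fold higher, where 5.34% were. On the control beads, 41 members were 2-fold lower, where 10.0% of all genes were, and 2 were 2-fold higher, where 8.61% were. With the interval alone as the rule, 47 members were below and 2 above their input on the miR-491-5p beads, where 51.1% and 30.3% of all genes were. On the control beads 45 were below and 4 above, where 49.6% and 33.9% were. On both beads at once, 15 members and 2.84% of all genes were 2-fold lower. With the libraries scaled by their totals, which raised the median of all genes by 0.32 on the miR-491-5p beads and by 0.14 on the control beads, no member was 2-fold lower on the miR-491-5p beads. On that scale 1.03% of all genes were lower and 10.1% higher on those beads. On the control beads 38 members were then 2-fold lower, where 6.48% of all genes were, and 2 were higher, where 10.8% were. The members' medians then stood 0.80 and 1.21 below those of all genes, against 0.81 and 1.21 with size factors.

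Pull-down over input was also tested over both transfections with edgeR's quasi-likelihood test, with the transfection as a block and 1 residual degree of freedom. At 2-fold and a false discovery rate under 0.05, 37 of 49 members were lower on the beads, where 5.23% of all genes were, and 0 were higher, where 4.26% were. At an unadjusted p under 0.05, 45 members were lower, where 22.6% of all genes were, and 0 higher, where 11.7% were. DESeq2 with the same block called 36 lower, where 4.98% of all genes were, and 0 higher, where 3.81% were. The adjusted p of the 37 lay between 0.0170 and 0.0424. By family the calls took 5 of 5 H1, 8 of 11 H2A, 12 of 15 H2B, 6 of 7 H3 and 6 of 11 H4 genes. The pull-downs carry different miRNAs and the pairs are the only replication, so the test speaks of beads of both kinds together. Without the block and without the control pull-down the count was 11, where 4.43% of all genes were lower. Without the miR-491-5p input it was 0, where 0.0948% of all genes were, and 41 members were lower at an unadjusted p under 0.05, where 12.6% of all genes were. Without the control input it was 0, where 0.0158% of all genes were, and 43 members were lower at an unadjusted p under 0.05, where 12.2% were.

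**Figure D1:**
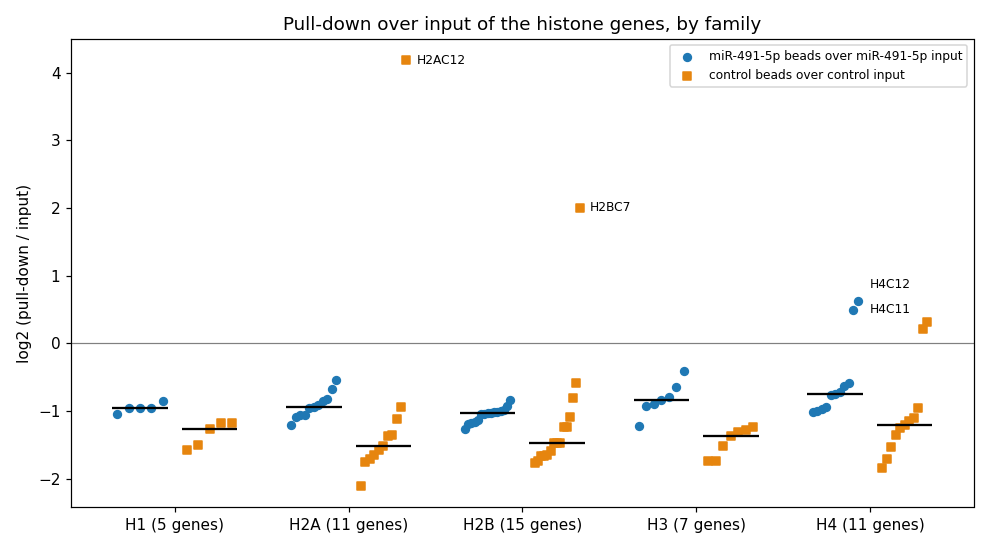
Log2 ratio of pull-down to input for the 49 histone genes past the count minimum, by family; circles are miR-491-5p beads over miR-491-5p input, squares are control beads over control input, and black lines are medians. Almost all points lie below 0, with family medians from -1.03 to -0.74 on the miR-491-5p beads and from -1.52 to -1.21 on the control beads, while H2AC12 and H2BC7 on the control beads and H4C11 and H4C12 on both lie above 0.

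The families were close to one another on the miR-491-5p beads. Their medians were -0.95 for H1, -0.94 for H2A, -1.03 for H2B, -0.84 for H3 and -0.74 for H4. On the control beads they were -1.27, -1.52, -1.48, -1.37 and -1.21 in the same order. The ranges of single genes overlapped between all families on both beads, and no difference between families was tested. For 43 of the 49 members the ratio was lower on the control beads than on the miR-491-5p beads, against 50.1% of all genes.

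The H1 genes spanned the narrowest range of the families, from -1.04 to -0.86 on the miR-491-5p beads and from -1.58 to -1.18 on the control beads. H1-2 had 13846 normalised counts on the miR-491-5p beads, 8766 on the control beads, 28435 in the miR-491-5p input and 26159 in the control input. H1-4 had 12200, 9201, 22112 and 20841 in these libraries. H1-1, the lowest H1 gene by enrichment, had 7862, 5914, 15233 and 13408. Each of them was lower in both pull-downs than in both inputs, and lowest in the control pull-down. The edgeR log2 change of pull-down against input was -1.31 for H1-2 (adjusted p = 0.0208), -1.02 for H1-4 (adjusted p = 0.0295) and -1.07 for H1-1 (adjusted p = 0.0243). H1-3 and H1-5 also passed, with -1.12 and -1.23.

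In H2B, H2BC12 had 8074 normalised counts on the miR-491-5p beads, 4677 on the control beads, 16240 in the miR-491-5p input and 15672 in the control input. H2BC17 had 4956, 3339, 11305 and 10438, and H2BC18, whose row spans 4 exons and 3196 bases, had 8732, 5191, 17886 and 17742. In all 3 the pull-downs lay below the inputs, with edgeR log2 changes of -1.38, -1.42 and -1.40 (adjusted p = 0.0196, 0.0170 and 0.0194 by edgeR). Among the H2A genes, H2AC4 had 1510 counts on the miR-491-5p beads, 988 on the control beads, 3500 in the miR-491-5p input and 3237 in the control input. H2AC13 had 2190, 1314, 4678 and 4133. Their log2 changes, -1.46 and -1.37 (edgeR, adjusted p = 0.0170 for both), were with those of H2BC17 and H2BC18 among the lowest of the 49. H2AC21, the most abundant H2A gene per length, had 2068, 2019, 3884 and 3883, a change of -0.93 that passed the false discovery rate (edgeR, adjusted p = 0.0264) but not 2-fold.

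In H3, H3C2 had 7734 normalised counts on the miR-491-5p beads, 5890 on the control beads, 18083 in the miR-491-5p input and 16791 in the control input. H3C11 had 2359, 1345, 3126 and 3341 in these libraries, and of the H3 genes it had the edgeR change closest to 0. The edgeR log2 change was -1.37 for H3C2 (adjusted p = 0.0170) and -0.86 for H3C11 (adjusted p = 0.0578). In H4, H4C4 had 7554, 4435, 15063 and 14537, and H4C3 had 8919, 6726, 17153 and 15539. Both H4 genes passed, with log2 changes of -1.35 and -1.08 (edgeR, adjusted p = 0.0196 and 0.0247). H4C8, with 3830, 2422, 5747 and 5202 counts, had -0.84 (edgeR, adjusted p = 0.0396), short of 2-fold.

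The members lie in 3 clusters on chromosome 6 and 2 on chromosome 1, apart from H4C16. In the first chromosome 6 cluster, 22 members were tested, with a median log2 ratio to input of -0.99 on the miR-491-5p beads and -1.25 on the control beads. The 5 of the next cluster had -1.01 and -1.15, and the 14 of the last had -0.87 and -1.49. On chromosome 1, the 5 tested members at 1q21 had -0.91 and -1.36 and the 2 at 1q42 had -0.76 and -1.47. No difference between clusters was tested. The 17 tested members not named elsewhere in the bead results, of which 15 were lower by edgeR (5.23% of all genes), were H2AC6, H2AC11, H2AC14, H2AC25, H2BC4, H2BC5, H2BC8, H2BC13, H2BC15, H2BC21, H2BC26, H3C10, H3C12, H3C13, H4C2, H4C5 and H4C9. Their mean normalised counts ran from 227 (H2AC25) to 13064 (H2BC21), and all lay below their input on both beads, between -1.16 (H2BC8) and -0.55 (H2AC25) with miR-491-5p and between -1.74 (H3C10) and -1.11 (H2AC6) with the control.

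H4C11 and H4C12, which encode the same H4 protein from a pair of single-exon genes in the chromosome 6 cluster, were the 2 members with more RNA on both beads than in the inputs. A ratio above 0 on both beads was found for 27.7% of all genes. H4C11 (ENSG00000197238, chr6:27824108-27824480, plus strand) had 627 normalised counts on the miR-491-5p beads, 492 on the control beads, 444 in the miR-491-5p input and 396 in the control input. H4C12 (ENSG00000273542, chr6:27831216-27831527, minus strand) had 741, 555, 481 and 478 in these libraries. For both genes the pull-downs lay above the inputs, and the miR-491-5p pull-down was the highest library. The log2 ratio of pull-down to input for H4C11 was 0.50 with miR-491-5p (interval 0.33 to 0.67) and 0.31 with the control (0.11 to 0.51). For H4C12 it was 0.62 (0.46 to 0.79) with miR-491-5p and 0.22 (0.03 to 0.40) with the control. Neither gene passed the edgeR test (adjusted p = 0.290 for H4C11 and 0.278 for H4C12). Their promoters, printed above, are the closest pair of promoters with measured rows on both sides. Reads shared by both copies were left out, so the split of reads between H4C11 and H4C12 is uncertain.

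H2AC12 and H2BC7 were high in 1 library only, the control pull-down. H2AC12 (ENSG00000274997, chr6:27147129-27147515, plus strand, 1 exon) had 1223 normalised counts on the miR-491-5p beads, 39472 on the control beads, 2353 in the miR-491-5p input and 2171 in the control input. H2BC7 (ENSG00000277224, chr6:26199520-26200715, plus strand, 1 exon) had 4530, 33564, 9068 and 8379 in these libraries. In both genes the miR-491-5p pull-down was the lowest library, and the control pull-down lay far above the other 3. H2AC12 was 18.2 times its input on the control beads, with a log2 ratio of 4.18 (4.11 to 4.25) that ranked 7 from the top of 12662 genes, against -0.94 (-1.04 to -0.85) on the miR-491-5p beads. H2BC7 was 4.01 times its input on the control beads, with a log2 ratio of 2.00 and a counting error of 0.02 (SE), against -1.001 (-1.05 to -0.95) on the miR-491-5p beads. The raw count of H2AC12 in the control pull-down was 44448 on 387 exon bases, or 115 reads per base, although reads marked as duplicates were left out of the counting. Of these exon bases, 36.4% lay in another row, and reads that touch both rows were also left out.

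The 2 genes took a large part of the histone counts of that library. H2AC12 took 18.9% and H2BC7 16.1% of all histone counts in the control pull-down, or 35.0% between them. Their joint share was 2.92% on the miR-491-5p beads, 2.95% in the miR-491-5p input and 2.89% in the control input. Of the H2A counts in the control pull-down, H2AC12 alone took 76.7%. The summed H2A counts were thus above their input on the control beads, with a log2 ratio of 0.53 (0.51 to 0.55), and were at -1.48 without H2AC12. Summed H2B counts were at -0.73 with H2BC7 and at -1.37 without it. The other families had -1.36 (H1), -1.52 (H3) and -1.30 (H4).

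**Figure D2:**
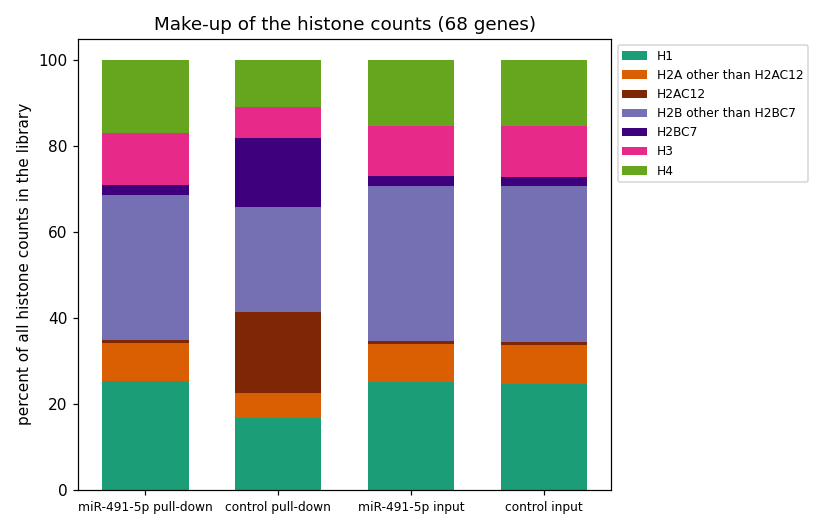
Share of all histone counts (68 genes, percent of the library's histone counts) taken by each family in the 4 libraries, with H2AC12 and H2BC7 drawn apart from the rest of H2A and H2B. The miR-491-5p pull-down and the inputs look alike, and in the control pull-down H2AC12 and H2BC7 together take 35.0%.

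No other tested member of the clusters of H2AC12 and H2BC7 lay above its input on the control beads. H2BC11 came closest, at -0.58, where the median of the H2B genes was -1.48. H2AC12 and H2BC12 face away from each other, with 248 bases between their starts, and H2BC12 had -1.01 on the miR-491-5p beads and -1.74 on the control beads. H2AC7, which lies 223 bases from H2BC7 and faces away from it, could not be compared. It had at most 1 count in any library, with 98.0% of its exon bases in another row. Of 12 such pairs of an H2A and an H2B gene within 400 bases, 8 had both genes past the minimum. Their 2 genes differed on the miR-491-5p beads by 0.01 to 0.44 in log2 ratio, with a median of 0.20. On the control beads they differed by 0.11 to 5.93, with a median of 0.53, and the pair of H2BC12 and H2AC12 held the largest difference. H2BC11, in the same cluster, had 5005 normalised counts on the miR-491-5p beads, 6894 on the control beads, 12033 in the miR-491-5p input and 10298 in the control input. H2BC14, in the last chromosome 6 cluster, had 3623, 4146, 8180 and 7271. Like H2AC12 and H2BC7 these 2 genes had more RNA on the control beads than on the miR-491-5p beads, but both pull-downs stayed below both inputs. Of the 49 members, 4 had a log2 ratio below 0 between the pull-downs, as 6217 of the 12662 genes tested had. The 4 were H2AC12, H2BC7, H2BC11 and H2BC14.

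**Figure D3:**
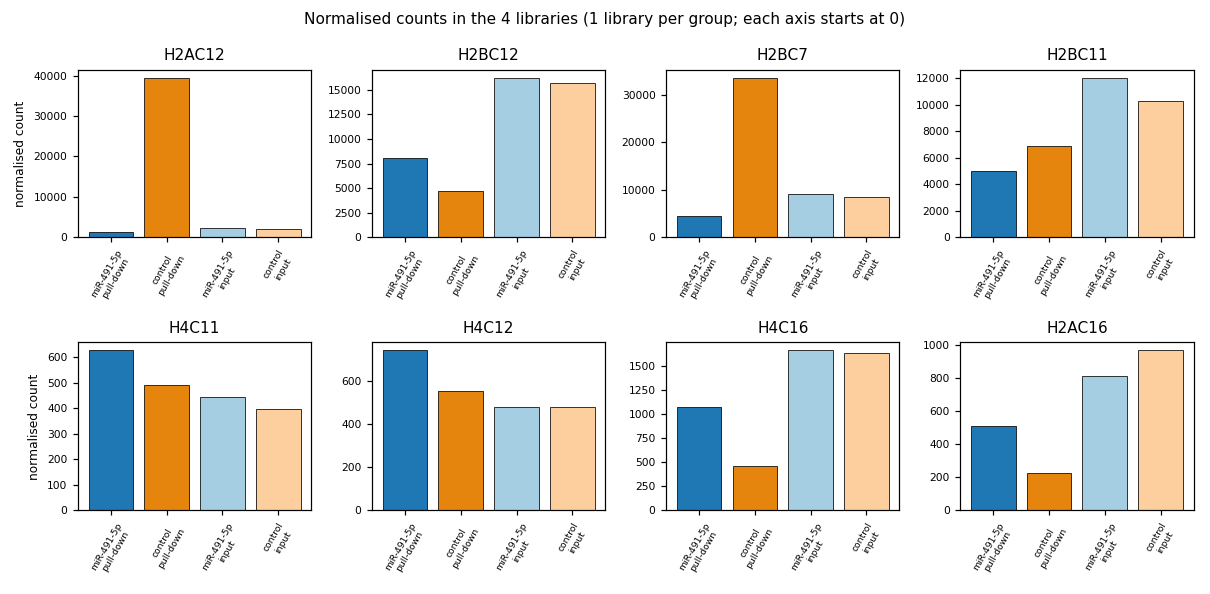
Normalised counts of 8 histone genes in the miR-491-5p pull-down, control pull-down, miR-491-5p input and control input, 1 bar per library and no replicates. H2AC12 and H2BC7 are high in the control pull-down, H2BC12 and H2BC11, from the cluster of H2AC12, are not above their inputs, H4C11 and H4C12 are higher in both pull-downs, and H4C16 and H2AC16 are lowest in the control pull-down.

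The study's enrichment was the ratio of the miR-491-5p pull-down to the control pull-down divided by the ratio of the miR-491-5p input to the control input. Most members lay modestly above 0 on its log2 scale. The median over 49 members was 0.48, and over all genes tested 0.00, and 43 members were above 0, against 50.1% of all genes. Other short genes also lay above 0, with a median of 0.30 for other protein-coding genes of at most 800 exon bases. With an interval excluding 0, 40 members were above and 4 below, where 35.4% and 35.3% of all genes were. At 2-fold with an interval excluding 0, 2 members were higher, where 4.46% of all genes were, and 2 were lower, where 5.32% were. In the pull-downs alone the counts were 3 higher, where 2.50% of all genes were, and 2 lower, where 3.17% were. With the interval alone, 43 members were above 0 between the pull-downs and 4 below, where 38.7% and 37.5% of all genes were. Scaled by library totals, which raised the median of all genes by 0.18, 6 members were 2-fold higher in enrichment and 2 lower, where 7.01% and 3.51% of all genes were. In the pull-downs alone the totals raised it by 0.16, and 6 members were then 2-fold higher and 2 lower, where 4.12% and 2.08% of all genes were.

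H2AC16 and H4C16 were the 2 members enriched past 2-fold. H2AC16 (ENSG00000276903, chr6:27865355-27865747, plus strand, 1 exon) had 507 normalised counts on the miR-491-5p beads, 223 on the control beads, 810 in the miR-491-5p input and 965 in the control input. H4C16 (ENSG00000197837, chr12:14767999-14771131, minus strand, 3 exons), the only member on chromosome 12, had 1069, 456, 1657 and 1636 in these libraries. In both genes the control pull-down was the lowest library and the miR-491-5p pull-down was also below its input. The enrichment was 1.43 for H2AC16 (1.18 to 1.69, rank 196 of 12662) and 1.21 for H4C16 (1.03 to 1.39, rank 333). On the miR-491-5p beads the log2 ratio to input was -0.67 for H2AC16 and -0.63 for H4C16, and on the control beads -2.11 and -1.84. Of the exon bases of H2AC16, 36.4% lay in other rows, so part of its reads was not counted.

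H3C1 had 3749 normalised counts on the miR-491-5p beads, 1855 on the control beads, 6488 in the miR-491-5p input and 6180 in the control input. It was past 2-fold between the pull-downs, with 1.01, but not in enrichment, with 0.94 (0.85 to 1.04). H2AC8 had 2165, 1130, 3900 and 3826, H3C11 had the values given above, and H4C13 had 1015, 616, 1701 and 1785. Their enrichments were 0.91 (0.79 to 1.03), 0.91 (0.79 to 1.02) and 0.79 (0.62 to 0.96). In H2B the highest were H2BC6, with 1996, 1113, 3778 and 3540 counts and 0.75 (0.63 to 0.87), and H2BC18, with 0.74 (0.68 to 0.79). In H1 they were H1-5, with 9472, 6215, 18297 and 17645 counts and 0.56 (0.50 to 0.61), and H1-2, with 0.54 (0.49 to 0.58). All of these genes were lower on the miR-491-5p beads than in the input of that transfection.

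At the low end, H2AC12 had an enrichment of -5.13 (-5.24 to -5.01), the lowest of the 12662 genes, and H2BC7 -3.00 (-3.06 to -2.94), rank 23 from the bottom. H2BC11 followed with -0.69 (-0.75 to -0.62) and H2BC14 with -0.36 (-0.44 to -0.29). Both values below -1 came from the control pull-down, since the miR-491-5p pull-down of these genes stood where that of the other members did. The lowest by enrichment in H4 was H4C1, at -0.05 (-0.19 to 0.09), with 1192 normalised counts on the miR-491-5p beads, 1101 on the control beads, 2405 in the miR-491-5p input and 2146 in the control input. In H3 it was H3C2, at 0.29 (0.23 to 0.34), and then H3C6, at 0.31 (0.14 to 0.47), with 923, 746, 1752 and 1750 counts. In H1 it was H1-1, at 0.23 (0.17 to 0.28), and then H1-3, at 0.31 (0.25 to 0.37), with 6678, 4825, 12999 and 11638 counts. The summed counts of a family had enrichments of 0.41 for H1 (0.38 to 0.43), -1.54 for H2A (-1.57 to -1.51), -0.33 for H2B (-0.35 to -0.32), 0.60 for H3 (0.56 to 0.63) and 0.46 for H4 (0.43 to 0.49). Without H2AC12 the H2A sum was at 0.46, and without H2BC7 the H2B sum at 0.30, so that these 2 genes set the sign for their families.

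**Figure D4:**
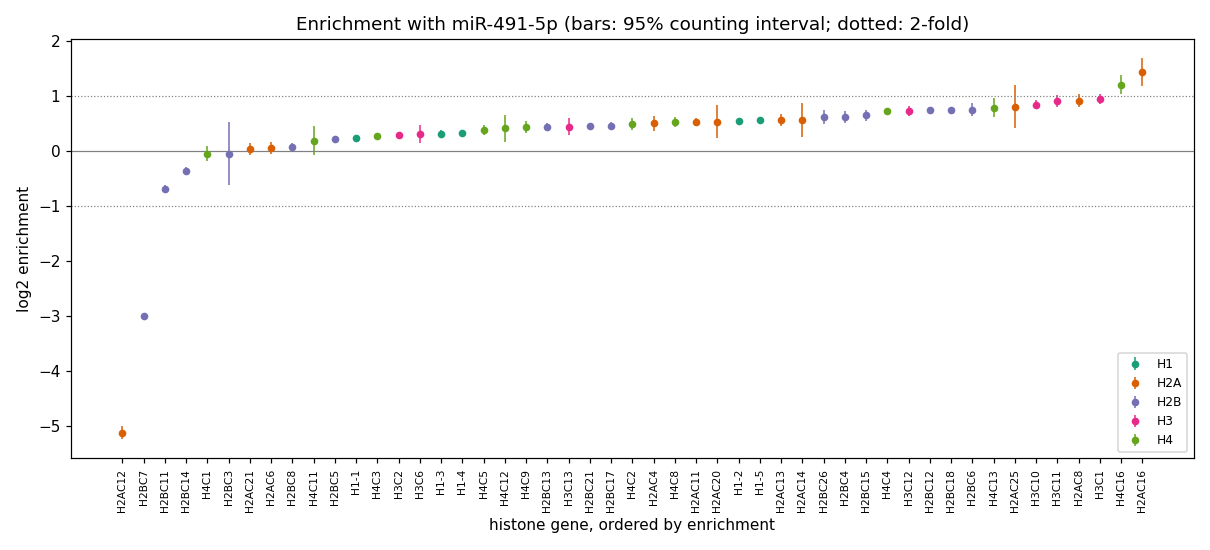
Log2 enrichment of the 49 histone genes past the count minimum, ordered by value and coloured by family; bars are 95% counting intervals and dotted lines mark 2-fold. H2AC12 (-5.13) and H2BC7 (-3.00) lie far below the others, 43 genes lie above 0, and H2AC16 and H4C16 are above 1.

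Exon length moved with the bead ratios. Among protein-coding genes that were no members, the 35 of at most 800 exon bases had medians of -0.83 on the miR-491-5p beads and -1.30 on the control beads, and 54.3% were lower by edgeR. The medians were -0.76 and -0.98 for 267 genes of 800 to 1500 bases (33.7% lower), -0.44 and -0.64 for 1713 genes of 1500 to 3000 bases (12.6% lower), and -0.11 and -0.10 for 8702 longer genes (1.86% lower). The 30 histone genes of at most 800 bases had -0.95 and -1.37, and 76.7% of them were lower. The 8 histone genes of 800 to 1500 bases had -0.99 and -1.29, the 9 of 1500 to 3000 bases -0.98 and -1.47, and the 2 longer ones -0.93 and -1.62. The histone rows with long exons thus had values like those of the short histone rows, while other genes of their length lay closer to 0. Median enrichment of the other genes was 0.30, 0.21, 0.14 and -0.01 from the shortest to the longest class. For the histone genes it was 0.47, 0.41, 0.52 and 0.69. The length is that of the annotation, which need not be the length of the RNA, and its part in the result was not tested. The 72 ribosomal protein genes, another set of short messenger RNAs, had medians of -1.04 and -1.36 on the beads. Of the 72, 52 were lower by edgeR, where 5.23% of all genes were. The median enrichment of the 72 was 0.30, and 61 of them were above 0, against 50.1% of all genes.

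**Figure D5:**
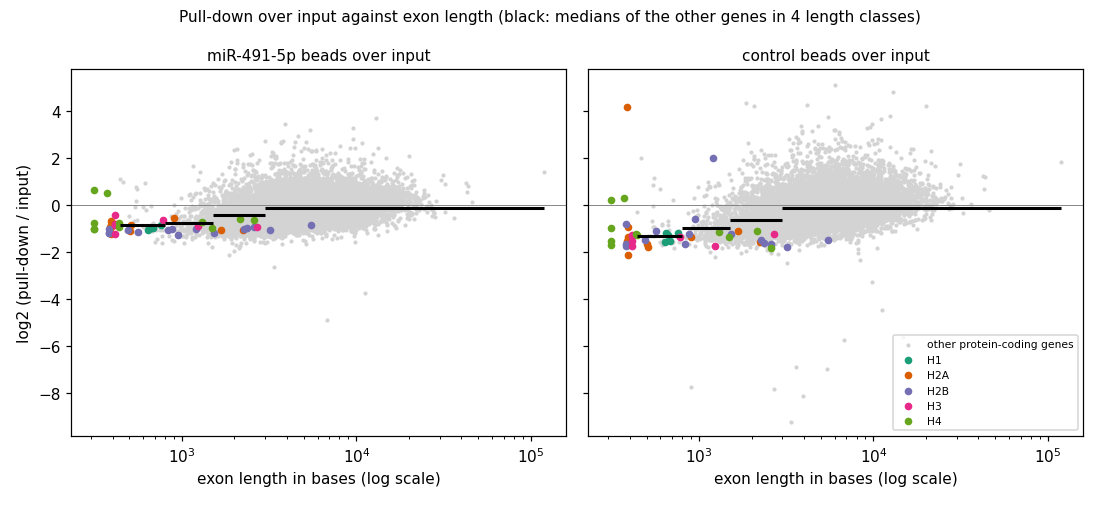
Log2 ratio of pull-down to input against annotated exon length (log scale) for the miR-491-5p beads and the control beads; grey points are other protein-coding genes, coloured points are histone genes by family, and black lines are medians of the grey points in 4 length classes. From the shortest to the longest class the grey medians run from -0.83 to -0.11 on the miR-491-5p beads and from -1.30 to -0.10 on the control beads, while the class medians of the histone genes lie between -0.99 and -0.93 and between -1.62 and -1.29.

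Genes that make, process and carry histones had medians closer to those of all genes than the histone genes had. Of 21 genes of histone transcription and 3′ end processing, 20 passed the minimum, with medians of -0.21 on the miR-491-5p beads and -0.46 on the control beads. None of the 20 was called by edgeR in either direction, where 5.23% of all genes were lower and 4.26% higher. SLBP, the protein that binds the histone stem-loop, had 8069 normalised counts on the miR-491-5p beads, 7874 on the control beads, 13470 in the miR-491-5p input and 13097 in the control input, an edgeR log2 change of -0.74 (adjusted p = 0.0593). CASP8AP2, which is needed for histone transcription, lay above its input on both beads, at 0.41 and 0.90, and NPAT, the activator of histone genes in S phase, at -0.11 and 0.51. LSM1, which takes part in histone RNA decay, lay at -0.94 and -1.05, and CSTF2 at -0.94 and -0.88. In enrichment only MIF4GD, a partner of SLBP in translation, was past 2-fold, at 1.23 (0.82 to 1.64). At that limit 4.46% of all genes were higher and 5.32% lower. The median enrichment of the 20 was 0.05. NPAT and CASP8AP2 were lowest, at -0.62 and -0.49.

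The replacement variants, most of whose messenger RNAs carry poly(A) tails and most of which are made outside S phase as well, stood between the histone genes and all genes. Of 11 listed, 8 passed the minimum, with medians of -0.59 on the miR-491-5p beads and -0.88 on the control beads and an enrichment of 0.07. H2AZ1, a variant of H2A, was lower on the beads (edgeR log2 change -1.21, adjusted p = 0.0208), with -1.19 and -1.23 on the beads. It was the only one of the 8 that edgeR called, where 5.23% of all genes were lower and 4.26% higher. H1-10 was the only variant past 2-fold in enrichment, where 4.46% of all genes were higher and 5.32% lower. Its enrichment was 1.11 (0.68 to 1.54). H1-10 had 175 normalised counts on the miR-491-5p beads, 103 on the control beads, 205 in the miR-491-5p input and 262 in the control input.

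Of 26 histone chaperones and importers, 22 passed the minimum. None of the 22 was called by edgeR, where 5.23% of all genes were lower and 4.26% higher. The 22 had medians of -0.26 and -0.41 on the beads and 0.02 in enrichment. CABIN1, a subunit of the HIRA complex, had the highest enrichment of these, 1.83 (1.71 to 1.94), with 4584 normalised counts on the miR-491-5p beads, 2256 on the control beads, 1756 in the miR-491-5p input and 3068 in the control input. ANP32E, a chaperone that removes H2A.Z, had the lowest, -1.88 (-1.92 to -1.84), with 14557, 37709, 28149 and 19818. ANP32E lay below the input on the miR-491-5p beads (-0.95) and above it on the control beads (0.93). H2AC12, H2BC7 and NPAT had the same signs. On the control beads H2AC12 and H2BC7 stood further above the input, at 4.18 and 2.00. Of 36 genes of DNA replication, 34 passed the minimum, with medians of -0.34 and -0.72 on the beads and 0.33 in enrichment. Of these only RPA3, a small subunit of the single-strand binding protein, was lower on the beads by edgeR (log2 change -1.23, adjusted p = 0.0172). By the same test 5.23% of all genes were lower.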

How the data were processed

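The deposited table gives raw read counts for each gene and library, whole numbers that the authors did not normalise. Per the file headers it came from featureCounts 1.5.0-p1 with GENCODE release 24. Counting ignored strand and left out reads marked as duplicates, fitting several places or touching several genes. STAR, DESeq2 1.10.1 and GRCh38 are named in the submitters' processing notes. Samples were grouped by title, with 1 library of pooled RNA per group.

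The table holds no gene names. Members were found by position and strand among RefSeq genes on GRCh38.p14, with 42 of 68 matching within 150 bases at both ends, 22 at 1 end and 4 by exons covered to at least 0.95. The members and lists were chosen with earlier results of these data known, and the naming of other rows (11324 of the 12662 tested) also serves the lists and length classes.

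Counts were divided by size factors computed with DESeq2 1.42.0 (1.24 for the miR-491-5p pull-down, 1.13 for the control pull-down, 0.957 and 0.778 for their inputs). Log2 ratios were taken after adding 1. Standard errors come from the raw counts plus 0.5, and intervals are 95%. A gene was called at 2-fold with an interval excluding 0. The test of pull-down over input used edgeR 4.0.16 with Benjamini-Hochberg adjustment over all 12662 genes. The calculations were tested on simulated data. Named members were the 2 highest per length and the 2 highest and 2 lowest by enrichment in each family, the 6 highest and 6 lowest on the beads, the 3 largest input ratios, and H2AC12, H2BC7 and H2AC16. H2BC14, SLBP and the partners in gene pairs were added after their values were seen. Alternatives changed the scaling, the added count, the minimum, the fold, the tool, the block and the libraries. The values of 1 listed variant are not reported here.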

Additional observations from a re-analysis of the deposited data

Results flagged for a closer look

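The log2 ratio of pull-down to input ran in opposite directions in the transfections for 2 members. For H2AC12 it was -0.94 on the miR-491-5p beads and 4.18 on the control beads, a difference of -5.13. For H2BC7 it was -1.001 on the miR-491-5p beads and 2.00 on the control beads, a difference of -3.00. With 1 library in each group these differences were not tested. Of the 49 members, 45 were below their input on both beads and 2 above it on both, against 45.9% and 27.7% of all genes tested.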

How the results depend on the processing

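Scaled by library totals, 6 members were higher in enrichment and 6 between the pull-downs, and 0 were lower on the miR-491-5p beads, where 7.01%, 4.12% and 1.03% of all genes were. At 1.5-fold, 16 were higher in enrichment (13.2% of all genes) and 22 between the pull-downs (10.0%), and 1 was higher (12.5%) and 45 were lower (20.8%) on the miR-491-5p beads. Next, subsets of members were chosen after seeing the data. Among the 30 tested members matched at both ends, enrichment was higher in 1 and lower in 1, the pull-down ratio was lower in 1, 10 were lower on the miR-491-5p beads, and 1 was higher and 24 were lower on the control beads. Among the 33 with no exon base in another row, enrichment was higher in 1 and lower in 1. The pull-down ratio was lower in 1 of the 33, and 1 was higher and 27 were lower on the control beads. Of all genes tested, 4.46% were higher and 5.32% lower in enrichment, and 3.17% were lower between the pull-downs. On the miR-491-5p beads 4.96% of all genes were lower, and on the control beads 8.61% were higher and 10.0% lower. The counts of members can only fall in a subset. Of the members called in enrichment, H2BC7 and H4C16 are not among the 30, and H2AC12 and H2AC16 are not among the 33. Leaving out each library in turn without the block, a lone sample being assumed to vary like the other groups, edgeR called 0 to 42 members lower and 0 to 2 higher. The 42 lower and the 2 higher, H2AC12 and H2BC7, came without the miR-491-5p pull-down (9.14% and 7.09% of all genes), 11 lower without the control pull-down (4.43%), and 0 without either input (0.0948% without the miR-491-5p input and 0.0158% without the control input). No other setting moved a count of members by over 1.5 times: edgeR called 34 lower with TMM factors (4.92% of all genes), 32 without the transfection block (4.72%) and 43 without a fold limit (10.2%, chosen after seeing the data), and DESeq2 36 (4.98%). Of the single members and family sums, totals moved 83 ratios by more than their counting error, ended 15 calls and added 4, TMM factors moved 4 and ended 4, and adding 5 left all 155 ratios as called. No called value changed sign under these alternatives. Naming by position without Ensembl ids was not run as an alternative, since positions were the only names in use. Limits are the single library of each group, reads of near-identical copies that cannot be placed, and low counts in 19 members. The cause of the other shifts was not tested.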
